A study of Mus musculus with 20 samples.

Results

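The 9 genes described here build long and unsaturated fatty acids in the liver: the elongases Elovl1, Elovl2, Elovl3, Elovl5 and Elovl7, the fatty acid desaturases Fads1, Fads2 and Fads3, and the stearoyl-CoA desaturase Scd2. They were taken by gene symbol from a table of 46095 gene symbols, and all 9 were found in it and passed the filter on low counts. RNA from the whole liver of 20 mice was sequenced, with 5 mice to a group and 4 groups. Wild-type (WT) mice and mice with Pck1 deleted in the liver (KO) ate chow or a diet given to produce non-alcoholic steatohepatitis (NASH diet) for 24 weeks, and were 31 to 33 weeks old. Pck1 encodes the cytosolic phosphoenolpyruvate carboxykinase of gluconeogenesis. The groups are written WT chow, WT NASH, KO chow and KO NASH, and the study asked, by its design text, what Pck1 does in the liver when NASH is induced by diet. The sources used here name no Cre line behind the deletion, no allele of the WT mice and no composition of the diets.

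Liver cells lengthen acyl-CoA chains on the endoplasmic reticulum in a cycle whose first and rate-limiting step is carried out by an ELOVL elongase. Desaturases add double bonds with electrons passed on by cytochrome b5. Dietary linoleic and alpha-linolenic acid become arachidonic, eicosapentaenoic and docosahexaenoic acid by alternating steps of FADS2, ELOVL5, FADS1 and ELOVL2. ELOVL1, ELOVL3 and ELOVL7 act on saturated and monounsaturated chains, and their products enter ceramides and other lipids with very long chains. In liver, SREBP-1c, LXR and PPAR-alpha are known to control several of these genes.

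Promoter sequences are shown for Elovl5, Elovl1 and Elovl7, because these 3 genes passed the test in at least 1 comparison below. Each is the stretch of 250 bases before a RefSeq transcription start in build GRCm38.p6, printed 5′ to 3′ on the strand of the gene. Capitals mark matches to CCAAT, the box bound by NF-Y (ATTGG on the other strand), and to CACGTG, an E-box of the kind bound by SREBP and USF proteins. The windows are chr9:77917115-77917364 (plus strand) for Elovl5, chr4:118427843-118428092 (plus strand) for the upstream one of both RefSeq starts of Elovl1, and chr13:108214154-108214403 (plus strand) for Elovl7.
Elovl5: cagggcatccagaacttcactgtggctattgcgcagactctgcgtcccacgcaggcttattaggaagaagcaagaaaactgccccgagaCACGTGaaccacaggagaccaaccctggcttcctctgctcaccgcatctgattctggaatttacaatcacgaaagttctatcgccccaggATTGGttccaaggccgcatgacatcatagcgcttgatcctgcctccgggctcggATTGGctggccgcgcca
Elovl1: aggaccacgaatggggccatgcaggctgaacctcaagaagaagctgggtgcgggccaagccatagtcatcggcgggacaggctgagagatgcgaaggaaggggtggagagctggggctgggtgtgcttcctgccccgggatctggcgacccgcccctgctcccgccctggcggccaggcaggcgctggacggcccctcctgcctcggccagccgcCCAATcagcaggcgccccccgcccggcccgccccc
Elovl7: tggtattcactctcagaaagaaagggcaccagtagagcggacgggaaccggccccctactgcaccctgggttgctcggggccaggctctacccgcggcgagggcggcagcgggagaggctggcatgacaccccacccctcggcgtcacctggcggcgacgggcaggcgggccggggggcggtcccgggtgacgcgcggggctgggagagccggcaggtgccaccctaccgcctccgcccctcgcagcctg
The Elovl5 window held 2 CCAAT boxes, beginning 71 and 17 bases before the start, and an E-box beginning 161 bases before it. The Elovl1 window held 1 CCAAT box, 35 bases before the start, and the Elovl7 window held neither motif. Among 32851 windows of 250 bases, 33.8% held at least 1 CCAAT box, 10.1% held 2 or more, and 6.02% held the E-box. Of the other members, Elovl2, Fads2 and Fads3 had a window in the table, and of these Fads3 held 2 CCAAT boxes, 106 and 78 bases before its start. The sterol response element searched (TCACNCCAC) and the perfect DR1 repeat bound by PPAR and HNF4 receptors were in none of the 8 windows of the 6 genes, and in 1.05% and 0.0335% of all windows. Both strands were searched for every motif, no match overlapped another, and a match in letters is a description of the window only.

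Total counts per library were 9958935 to 20601955. The genotype labels held for Pck1. Its level in CPM (counts scaled to library size) was 3573 ± 1139 (SD, n = 5) in WT chow against 626 ± 175 in KO chow, and 2290 ± 511 in WT NASH against 445 ± 112 in KO NASH. Libraries differed in ways the groups do not state. The labels give no sex, but counts of 4 Y-linked genes were 2753 to 5230 in 13 libraries, called male here, and 1 to 12 in the other 7, called female. All 5 WT chow mice were male. Of the WT NASH mice only replicate 4 was male. The females among the KO mice were replicates 3 and 5 on chow and replicate 2 on the NASH diet. In WT mice sex and diet therefore cannot be told apart. A fit with sex as a term rests on the WT NASH male and on a sex difference taken as equal in all groups. In 6 libraries long genes were under-represented, with a slope of -0.34 to -0.25 for log2 CPM against log2 exonic length over 9498 genes, compared with 0.01 to 0.19 in the other 14. They comprised 3 WT chow libraries (replicates 3, 4 and 5), 2 KO chow libraries (replicates 4 and 5) and the WT NASH male. Hepatocyte genes (Alb, Ttr, Apoa1, Apob, Cps1 and Cyp3a11) were abundant in every group, whose tissue label is liver. Their sum was 63250 to 125600 CPM in WT chow and 54550 to 104500 CPM in WT NASH. In KO chow it was 53550 to 118600 CPM, and in KO NASH 62970 to 75350 CPM. KO NASH replicates 1 and 5 were the most alike pair of a group, but differed beyond sampling noise (chi-square of 8.01 per gene, 21.7 to 458 in the other pairs).

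Per kilobase of exon, the polyunsaturated-chain genes were the most abundant of the 9. Averaged over 20 libraries, Elovl5 had 228, Elovl2 227, Fads2 153 and Fads1 73.9 RPKM (CPM per kilobase of exonic length, GENCODE M21). Elovl3, an elongase of saturated and monounsaturated chains known for its hormonal and daily regulation in mouse liver, followed with 60.4 RPKM. Elovl1, the broadly expressed elongase of saturated very long chains, had 9.85 RPKM. Scd2 (1.03 RPKM), Fads3 (0.69 RPKM) and Elovl7 (0.53 RPKM) were the lowest. Fads3, Fads2 and Fads1 lie next to each other on chromosome 19 within 155.3 kb (GRCm38 10041569 to 10196877), where Fads2 and Fads1 were abundant and Fads3 was among the lowest of the 9. Elovl5 is on chromosome 9 (77917364 to 77984519), Elovl1 on chromosome 4 (118428093 to 118432953) and Elovl7 on chromosome 13 (108214404 to 108285683), all on the plus strand.

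**Figure D1:**
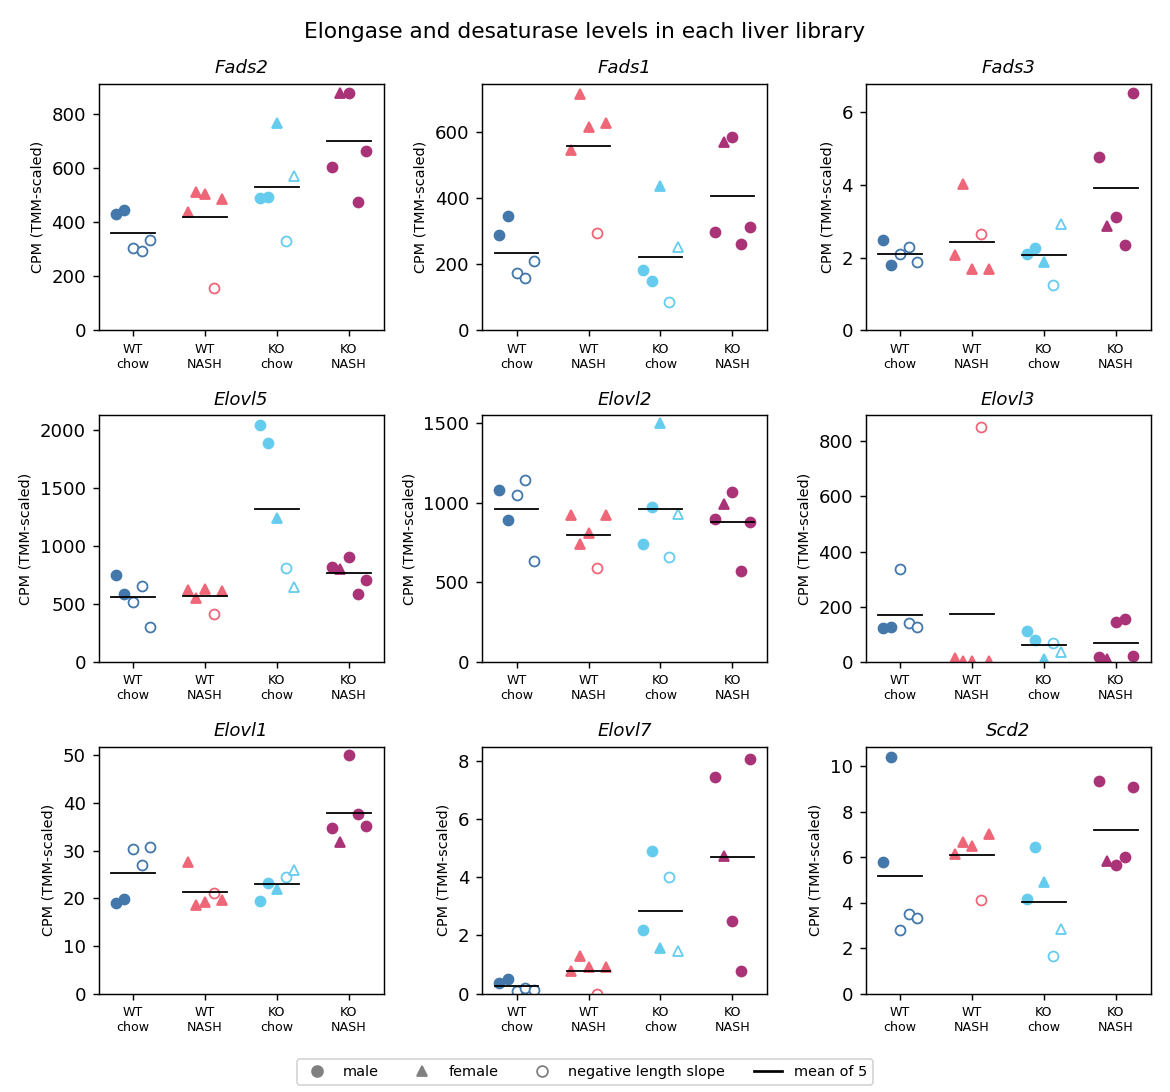
Levels of the 9 genes in each library, in CPM scaled by TMM library sizes, on linear axes from 0; circles are males, triangles females, open symbols the 6 libraries of negative length slope, and bars the mean of 5. KO NASH lies above the other groups for Elovl1, both KO groups lie above WT chow for Elovl7, and Elovl3 in WT NASH reaches 852 CPM in the 1 male and 13.6 CPM or less in the 4 females.

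Each comparison was read from 1 edgeR quasi-likelihood fit over all 20 libraries, with Benjamini-Hochberg adjustment over 14440 genes; called genes have an adjusted p under 0.05 and are said to rise or fall. In KO chow against WT chow, 2 of the 9 genes rose and none fell, against 5.53% of all genes called. In KO NASH against WT NASH, 2 rose and none fell (9.65% of all genes), and in KO NASH against KO chow 1 rose and none fell (3.29%). In WT NASH against WT chow edgeR called none of the 9 (5.93% of all genes); the unadjusted p was under 0.05 for 2 of them and for 22.1% of all genes. DESeq2 called 1 of them and 10.4% of all genes, and limma voom with quality weights called 4 and 40.6%. For the interaction, which asks whether the difference between KO and WT depends on the diet, edgeR called none (0.139% of all genes); the unadjusted p was under 0.05 for 1 of them and for 8.25% of all genes. DESeq2 called 1 of them and 1.31% of all genes, and limma voom called 3 and 13.5%. The median log2 difference of the 9 genes was 0.20 between the WT diets, -0.02 between the genotypes on chow, 0.44 between the genotypes on the NASH diet and 0.72 between the KO diets, while over all genes these medians were 0.01, 0.00, 0.00 and -0.02. Each comparison shares a group with some of the others, and all come from 1 fit, so their values are set side by side and not counted as separate evidence.

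**Figure D2:**
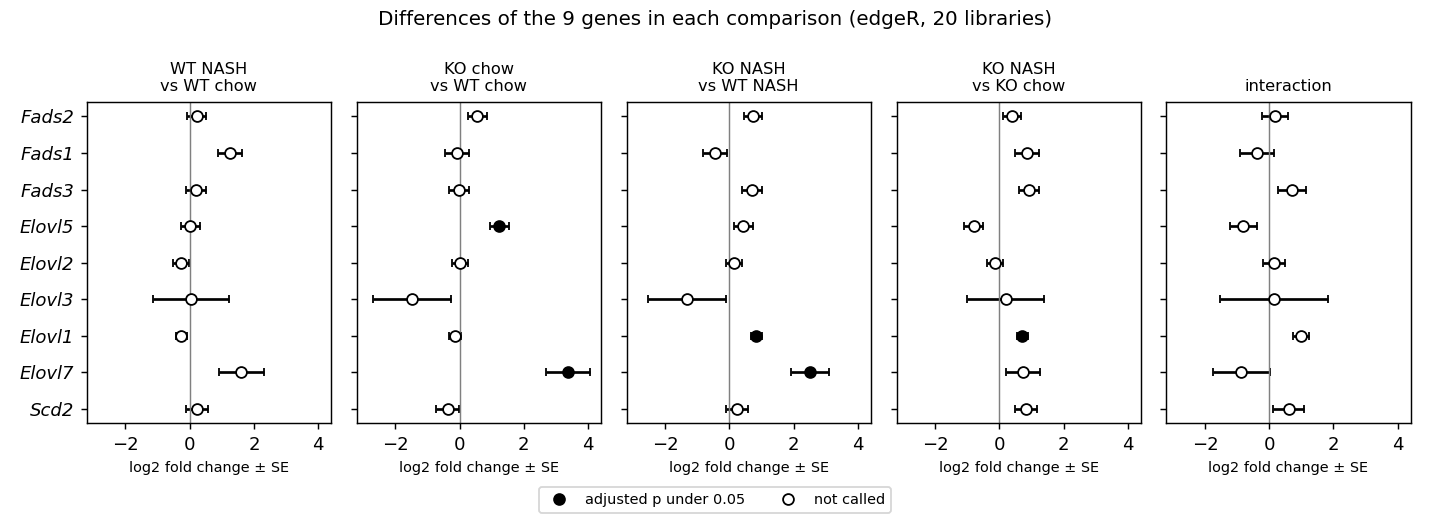
The log2 fold change and its standard error (SE) for each gene in the 4 comparisons and in the interaction, from the edgeR fit of 20 libraries; filled points have an adjusted p under 0.05. Filled points are Elovl5 and Elovl7 in KO chow against WT chow, Elovl1 and Elovl7 in KO NASH against WT NASH, and Elovl1 in KO NASH against KO chow.

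Elovl5, which elongates polyunsaturated chains after the first desaturation, was higher in livers without Pck1 on chow. Its level was 749, 583, 514, 655 and 300 CPM in WT chow replicates 1 to 5. In KO chow it was 2041, 1888, 1241, 806 and 642 CPM. The 4 highest KO chow libraries lay above every WT chow library, and the lowest, a female of negative length slope, lay inside the WT range. The rise was 2.36-fold, a log2 change of 1.24 (SE 0.300, adjusted p = 0.0208 by edgeR). It was 1.51 in the males alone (adjusted p = 0.0201) and 1.28 with sex as a term (adjusted p = 0.0205). The call was lost when KO chow replicate 1 or replicate 2 was left out (log2 changes of 1.03 and 1.08, adjusted p = 0.0724 and 0.0662) and when only these 2 groups were fitted (1.25, adjusted p = 0.118). Because whole liver was sequenced, a change in the number of cells of a type and a change in RNA per cell cannot be told apart.

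On the NASH diet Elovl5 differed less between the genotypes, although that change in the difference did not pass its own test. WT NASH livers had 617, 554, 632, 409 and 613 CPM. KO NASH livers had 821, 800, 908, 587 and 708 CPM, so that 4 of 5 lay above every WT NASH library. The log2 difference was 0.44 (SE 0.296, adjusted p = 0.377). Between KO NASH and KO chow it was -0.79 (SE 0.298, adjusted p = 0.132), and it was called with the length slope as a term (-0.99, adjusted p = 0.00912) and without the 6 libraries of negative slope (-1.17, adjusted p = 0.00446). The interaction was -0.80 (SE 0.419, adjusted p = 0.66).

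Elovl2, the elongase that makes the precursors of docosahexaenoic acid, did not pass the test in any comparison. On chow its mean was 958 ± 204 CPM in WT livers and 961 ± 329 CPM in KO livers, and on the NASH diet 795 ± 139 and 881 ± 190 CPM (SD, n = 5 each). The 95% intervals of its 4 log2 differences between groups, computed from the SE, together ran from -0.75 to 0.63. Relative to Elovl2, Elovl5 read counts were 0.475 to 0.694 in WT chow and 0.665 to 0.783 in WT NASH. This is 1 of the 36 ratios computed among the 9 genes, and is given without a test. The ratio was 2.76, 1.94, 0.827, 1.22 and 0.692 in KO chow replicates 1 to 5, and 0.804 to 1.03 in KO NASH. KO chow replicates 1, 2 and 4, the 3 males, held the 3 highest ratios of all 20 libraries.

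Fads2, the desaturase that opens polyunsaturated fatty acid synthesis, was highest on average in KO NASH, and its difference from WT NASH passed the test in some fits only. The 5 WT NASH libraries had 437, 513, 506, 155 and 486 CPM. The 5 KO NASH libraries had 603, 877, 877, 475 and 664 CPM. All but KO NASH replicate 4 lay above every WT NASH library, and the low WT NASH value was the 1 male of that group. The log2 difference was 0.74 (SE 0.292, adjusted p = 0.114). With sex as a term it was 1.32 (adjusted p = 0.013), with sex and length slope together 1.17 (adjusted p = 0.00118), and by limma voom, which has no sex term here, 0.58 (adjusted p = 0.0332). The fits with sex rest on that male, a library of negative length slope, as the only one of its sex in WT NASH. In males alone, again resting on it, the difference was 2.11. The fit with replicate number as a term also called Fads2. In WT chow Fads2 was 294 to 447 CPM and in KO chow 332 to 769 CPM, a log2 difference of 0.56 (SE 0.291, adjusted p = 0.309).

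Fads1, the second desaturase of the pathway, had its largest difference between WT groups. WT chow livers had 289, 345, 174, 158 and 210 CPM. WT NASH livers had 546, 717, 617, 294 and 627 CPM. The 4 WT NASH females were above every WT chow library, all of which were male, and the WT NASH male lay inside the WT chow range. The log2 difference was 1.25 (SE 0.378, adjusted p = 0.0538). It was 0.34 with sex as a term (adjusted p = 0.713), and it was called when WT NASH replicate 4, the male, was left out (1.42, adjusted p = 0.0193). It was also called without WT chow replicate 2 (1.43, adjusted p = 0.0363) and without KO chow replicate 3 or 4 (1.25, adjusted p = 0.0321 in both). DESeq2, limma voom and the fit with replicate number as a term called it too, and none of them held a sex term. KO chow had 183, 150, 439, 84.3 and 253 CPM, with the 2 females highest. KO NASH had 297, 572, 587, 263 and 312 CPM, with the female second. The log2 difference between these KO groups was 0.87 (SE 0.375, adjusted p = 0.179), 1.21 with sex as a term (adjusted p = 0.0291) and 1.28 without KO chow replicate 3 (adjusted p = 0.0449). Between KO NASH and WT NASH it was -0.46 (SE 0.373, adjusted p = 0.469), and 0.22 with sex as a term (adjusted p = 0.763), so the sign turned.

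The ratio of Fads1 to Fads2 reads, which is free of library size, did not overlap between WT NASH and any other group, whereas each gene alone did. It was chosen after all 36 ratios among the 9 genes had been computed in the 4 comparisons, and is given without a test. Of the 36 ratios, 4 did not overlap between WT NASH and WT chow, 11 between KO chow and WT chow, 4 between KO NASH and WT NASH, and 3 between the KO groups. How often ratios of other gene pairs did not overlap was not computed. In WT chow the ratio of Fads1 to Fads2 was 0.674, 0.772, 0.574, 0.537 and 0.628. In WT NASH it was 1.25, 1.40, 1.22, 1.90 and 1.29. Every WT NASH library, the male included, lay above every other library of the study. In KO chow it was 0.375, 0.304, 0.570, 0.254 and 0.443, and in KO NASH 0.492, 0.652, 0.669, 0.553 and 0.469. The WT means were 0.637 ± 0.0918 on chow and 1.41 ± 0.279 on the NASH diet, and the KO means 0.389 ± 0.124 and 0.567 ± 0.0910 (SD, n = 5 each). Among KO males the ratio was 0.254 to 0.375 on chow and 0.469 to 0.669 on the NASH diet, again without overlap. The male WT NASH library is also of negative length slope, and the share of that slope in its ratio was not tested; in WT chow, where 3 of 5 libraries have it, those 3 held the 3 lowest ratios.

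**Figure D3:**
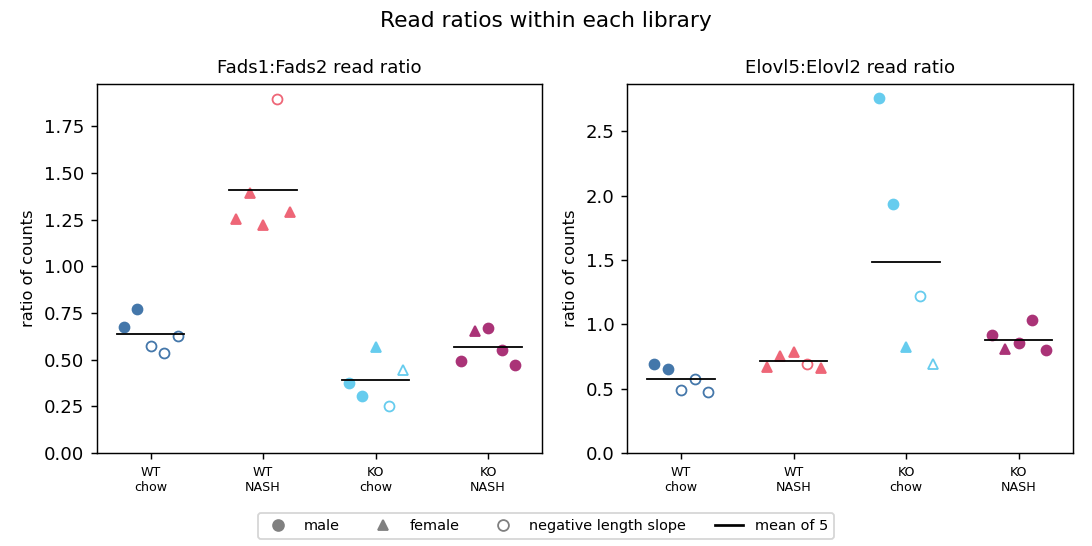
Ratios of deposited read counts within each library, Fads1 to Fads2 on the left and Elovl5 to Elovl2 on the right, on linear axes from 0; symbols mark sex and length slope and bars the mean of 5. The Fads1 to Fads2 ratio is 1.22 to 1.90 in WT NASH and at most 0.772 elsewhere, and the Elovl5 to Elovl2 ratio is widest in KO chow.

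Fads3, a desaturase known to act on sphingoid bases, was scarce, with 17 to 144 counts per library. It had 4.78, 2.86, 3.10, 2.35 and 6.53 CPM in KO NASH and 2.07, 4.03, 1.70, 2.65 and 1.68 CPM in WT NASH. KO NASH replicates 1 and 5, the alike pair, were the highest of all 20 libraries. The log2 difference from WT NASH was 0.70 (SE 0.311, adjusted p = 0.161) and from KO chow 0.92 (SE 0.309, adjusted p = 0.1), and neither was called under any alternative.

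Elovl1, an elongase of saturated very long chains used in ceramides, had its highest levels in KO NASH. The 5 livers of that group had 34.7, 31.9, 50.1, 37.6 and 35.1 CPM. WT NASH livers had 27.5, 18.6, 19.3, 21.2 and 19.6 CPM, and KO chow livers 19.4, 23.1, 21.8, 24.5 and 26.0 CPM. WT chow livers had 19.0, 19.9, 30.2, 27.0 and 30.8 CPM. All 5 KO NASH libraries lay above all 15 others. Against WT NASH the rise was 1.78-fold, a log2 change of 0.83 (SE 0.178, adjusted p = 0.00665 by edgeR). It kept its call with sex as a term (0.81, adjusted p = 0.0359), with each library left out, and without the 6 libraries of negative slope (0.83, adjusted p = 0.00214); it was not called in males alone, with 1 WT NASH mouse (0.92, adjusted p = 0.116), or in females alone, with 1 KO NASH mouse (0.61, adjusted p = 0.705). In both the lone library is taken to vary like the other groups. Against KO chow the rise was 1.65-fold, a log2 change of 0.72 (SE 0.177, adjusted p = 0.0333).

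That second rise of Elovl1 was near the threshold. Leaving out any 1 of 8 KO libraries lost the call: KO chow replicates 1, 2, 4 and 5 and KO NASH replicates 1, 3, 4 and 5, with log2 changes of 0.60 to 0.75 and adjusted p of 0.0501 to 0.0858. On chow the log2 difference of KO from WT livers was -0.14 (SE 0.177, adjusted p = 0.698, 95% interval -0.49 to 0.20). The interaction was 0.98 (SE 0.250), with an unadjusted p of 0.000854 and an adjusted p of 0.137 by edgeR. DESeq2 gave 0.97 (adjusted p = 0.028), limma voom 1.24 (0.00417) and the fit with length slope as a term 0.96 (0.026), whereas with sex as a term the adjusted p was 0.495. In KO NASH against WT NASH, 14.1% of all genes did not overlap between the groups, and of the 9 members Elovl1 alone did not. In KO NASH against KO chow, 8.50% of all genes and again Elovl1 alone did not overlap.

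Elovl7, a low-level elongase of saturated very long chains, had the largest fold rises among the called differences between groups. WT chow livers had 6, 9, 1, 2 and 2 counts, or 0.355, 0.487, 0.0995, 0.190 and 0.139 CPM. KO chow livers had 47, 122, 32, 55 and 24 counts, or 2.18, 4.91, 1.58, 3.99 and 1.46 CPM. WT NASH livers had 12, 22, 15, 0 and 14 counts, or 0.775, 1.31, 0.908, 0 and 0.904 CPM, where 0 counts allow up to 0.441 CPM. KO NASH livers had 175, 111, 40, 16 and 178 counts, or 7.46, 4.74, 2.48, 0.767 and 8.07 CPM. KO chow lay wholly above WT chow, and KO NASH lay above WT NASH except for replicate 4. Elovl7 passed the filter on low counts (0.598 CPM in 5 libraries) with none of its WT chow libraries, so it passed through the groups where it was higher.

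Against WT chow, Elovl7 rose 10.4-fold in KO chow, a log2 change of 3.38 (SE 0.675, adjusted p = 0.00618 by edgeR). Against WT NASH it rose 5.72-fold in KO NASH, a log2 change of 2.52 (SE 0.596, adjusted p = 0.0127). Between the WT diets the log2 difference was 1.60 (SE 0.704, adjusted p = 0.186). The WT chow libraries held 1 to 9 counts, so a fold against them rests on few reads. The interaction was -0.87 (SE 0.892, adjusted p = 0.883). The chow result was lost without the 6 libraries of negative slope, which include 3 of the 5 WT chow mice (2.79, adjusted p = 0.0764), and held in males alone (3.77, adjusted p = 0.00683). The NASH result was lost with sex as a term (2.34, adjusted p = 0.0609) and in females alone (2.31, adjusted p = 0.127) but held with sex and length slope together (2.15, adjusted p = 0.0358). In KO chow against WT chow, 4.91% of all genes did not overlap between the groups, and 2 of the 9 members did not: Elovl7 above and Elovl3 below. In WT NASH against WT chow, 6.15% of all genes and none of the 9 did not overlap.

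Markers of other cell types were read beside the Elovl1, Elovl5 and Elovl7 rises. The summed lists for macrophages, stellate cells and fibroblasts, endothelial cells, cholangiocytes and B and T cells overlapped in range between the groups of all 3 comparisons with a call. Of their single genes, 1 of 6 macrophage and 2 of 6 endothelial genes rose in KO NASH against WT NASH (9.65% of all genes called). In KO chow against WT chow 1 of 6 macrophage genes rose (5.53%), and in KO NASH against KO chow 1 of 6 stellate and 1 of 5 cholangiocyte genes (3.29%). No gene of these lists fell. In that order, the median log2 differences were -0.49, 0.59 and -0.98 for macrophage genes and -0.91, 0.40 and -0.75 for B and T cell genes. They were 0.51, 0.25 and 0.14 for endothelial, 0.59, 0.26 and 0.71 for stellate, and 0.49, -0.51 and 0.93 for cholangiocyte genes. The red blood cell list (Hba-a1, Hba-a2, Hbb-bs, Hbb-bt and Alas2) summed to 34.4 to 85.6 CPM in KO NASH and 89.5 to 182 CPM in KO chow, and 2 of its 5 genes fell. The adipose list (Adipoq, Lep, Cfd, Plin1 and Retn) summed to 3.59 to 54.5 CPM in KO NASH and 0.452 to 0.969 CPM in WT NASH. Of its 5 genes, Lep had 0 counts in all 20 libraries, Adipoq, Plin1 and Retn had at most 9, 7 and 5 counts, and Cfd had 84 to 1135 counts in KO NASH. The part of these genes in the results was not tested.

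Elovl3 differed with the sex of the mice. In WT chow, all male, it had 124, 126, 338, 140 and 127 CPM. In WT NASH it had 13.6, 2.55, 4.42, 852 and 4.07 CPM, and the high value was the 1 male. In KO chow it had 112, 77.8, 10.3, 69.5 and 36.0 CPM, and the low pair, replicates 3 and 5, were the females. In KO NASH it had 19.1, 10.9, 143, 154 and 22.6 CPM, and the lowest was the female. In each of the 3 groups with both sexes, every male lay above every female.

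With 4 group terms and sex in the fit, Elovl3 was 16.1-fold higher in males, a female minus male log2 coefficient of -4.01 (SE 0.792, adjusted p = 0.00941 by edgeR). It was the only 1 of the 9 genes called for sex, against 1.02% of all genes. Without WT NASH replicate 4 the coefficient was -2.28 (adjusted p = 0.311). With replicate number as a term it was not called either (adjusted p = 0.178 by edgeR). Fads1 (1.07, SE 0.272, adjusted p = 0.0725), Fads2 (0.83, SE 0.234, adjusted p = 0.138) and Elovl2 (0.48, SE 0.212, adjusted p = 0.589) had positive coefficients, that is higher fitted levels in females, and none was called, though Fads1 was without KO NASH replicate 3 (1.16, adjusted p = 0.0164). DESeq2 called Elovl3, Fads1 and Fads2, against 1.97% of all genes. Elovl3 was not called in any comparison between groups by edgeR on all 20 libraries. The log2 difference between the WT diets was 0.03 (SE 1.19, adjusted p = 0.991), and that of KO NASH from WT NASH -1.32 (SE 1.21, adjusted p = 0.531). Without WT NASH replicate 4 these became -4.81 (adjusted p = 0.0021) and 3.50 (adjusted p = 0.0148), and the interaction moved from 0.16 (adjusted p = 0.992) to 4.99 (adjusted p = 0.0274), so that 1 library set these values.

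Male-biased liver genes (Mup20, Cyp4a12a, Cyp7b1, Slco1a1 and Cyp2d9) moved with Elovl3. Their sum was 2837 to 10270 CPM in WT chow, 7904 CPM in the WT NASH male, 934 to 1661 CPM in the KO males of both diets, and 61.1 to 187 CPM in all 7 females. Among males, Elovl3 was 69.5 to 112 CPM in KO chow and 124 to 338 CPM in WT chow, without overlap, and 19.1 to 154 CPM in KO NASH.

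**Figure D4:**
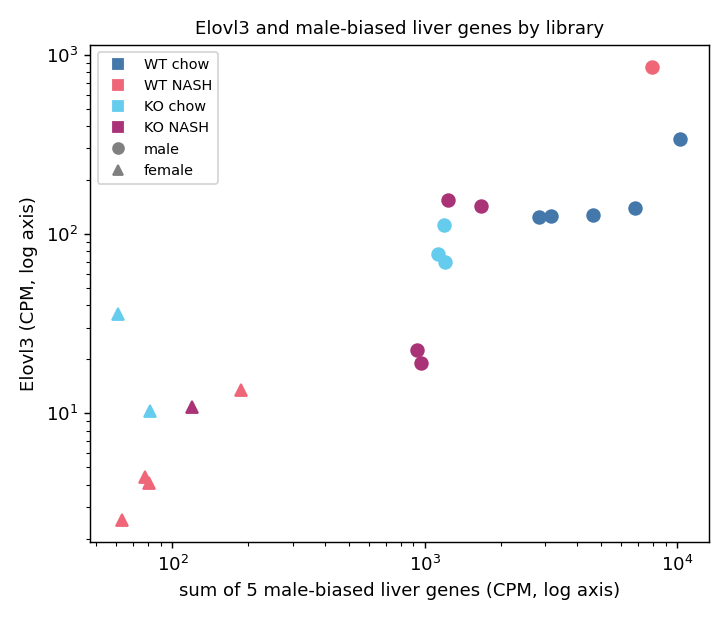
Elovl3 against the summed level of 5 male-biased liver genes in each of the 20 libraries, both in CPM on log axes; colours mark the groups, circles males and triangles females. The 7 females lie at 187 CPM or less on the horizontal axis and at 36.0 CPM or less for Elovl3, and the WT NASH male stands at 7904 and 852 CPM.

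Scd2, the stearoyl-CoA desaturase isoform known mainly from brain and the developing body, had 23 to 219 counts per library, and did not pass the test in any comparison. On chow its mean was 5.17 ± 3.15 CPM in WT livers and 4.01 ± 1.84 CPM in KO livers, and on the NASH diet 6.08 ± 1.15 and 7.17 ± 1.86 CPM (SD, n = 5 each). The log2 difference between the KO groups was 0.83 (SE 0.351, adjusted p = 0.172). Its near copy Scd1, the main isoform of adult liver, had 2090 to 87037 counts, 10.7 to 1097 times those of Scd2. No source used here says how reads shared by both were assigned, and Scd2 is uncertain for that reason. Over the 20 libraries the log2 levels of both correlated at r = -0.11, given as a description.

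The 9 genes did not vary as a block. Of their 36 pairwise correlations of log2 CPM over 20 libraries, which share depth, sex and group structure, the highest was 0.75 between Elovl7 and Fads2. Elovl5 and Elovl7 had r = 0.62, Fads1 and Scd2 0.62, and the neighbours Fads1 and Fads2 0.48. Elovl3 was lowest against Fads1 (r = -0.63). Outside the family, the genes most like each member among 8978 candidates were named by the highest r. These were Ptpn4 for Elovl5 (0.94), Mvp for Elovl7 (0.94), Erf for Scd2 (0.94), Ttc39c for Elovl3 (0.91), Flot2 for Fads2 (0.89), Sgsm2 for Fads1 (0.88), Bicc1 for Fads3 (0.85), Ralgps2 for Elovl2 (0.81) and Acadvl for Elovl1 (0.72).

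The rest of the pathway was read from a list of 37 genes, of which 34 were tested; Elovl4, Scd3 and Scd4 fell below the filter. In WT NASH against WT chow 5 rose and 3 fell, against 5.93% of all genes called. The largest rise was Abcd2, a peroxisomal importer of very long acyl-CoA (log2 change 2.89, SE 0.751, adjusted p = 0.0272). Others, named after their values were seen, were Srebf1 (2.61), Srebf2 (2.04), Insig1 (1.73) and the cytochrome b5 gene Cyb5b (1.27), which rose, and the elongation-cycle dehydratase Hacd3 (-0.81) and the phospholipid acyltransferase Lpcat3 (-0.63), which fell. With sex as a term 2 of these calls remained, Cyb5b and Srebf1, and in males alone, with 1 WT NASH mouse, none of the 34 was called by edgeR. Leaving out WT chow replicate 3 or WT NASH replicate 1, 2, 3 or 5 left 5 calls each.

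In KO chow against WT chow 4 of the 34 rose and 1 fell, against 5.53% of all genes called. The largest rise was Acsl4, which activates arachidonic acid (1.48, SE 0.372, adjusted p = 0.0243), and the fall was Mlxipl, the gene of the carbohydrate-responsive factor ChREBP (-1.19, SE 0.325, adjusted p = 0.0367). Hsd17b4 (0.75) and Hacd2 (0.68) also rose. No call of this list was made when KO chow replicate 1 or replicate 2 was left out; Elovl5 lost its call without either of them as well. The count was 1 without WT chow replicate 1, 2 or 3, 2 without WT chow replicate 5 or KO chow replicate 4, and 3 without WT chow replicate 4, any WT NASH replicate but 4, or any KO NASH replicate.

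In KO NASH against WT NASH 4 rose and 7 fell, against 9.65% of all genes called. The largest fall was Scd1 (-2.43, SE 0.712, adjusted p = 0.036). Acaa1a (1.26), Acsl4 (1.22) and Hsd17b4 (0.85) were among those that rose, and Cyb5a (-1.92), Elovl6 (-1.29), Insig1 (-1.24), Mlxipl (-1.23), Srebf1 (-0.97) and Cyb5b (-0.77) fell. Elovl6, the elongase of palmitate, thus fell in the comparison in which Elovl1 and Elovl7 rose. With sex as a term 2 of the 34 rose, Acaa1a among them, and none fell, so that none of the 7 falls was called. With sex and length slope together 2 rose and 5 fell. In males alone, with 1 WT NASH mouse, 7 rose and 1 fell. There were 4 calls without KO NASH replicate 1 or 5, 5 without WT NASH replicate 2, 6 without WT NASH replicate 5 or KO NASH replicate 3, and 7 without WT NASH replicate 3. In KO NASH against KO chow none rose and 2 fell, Elovl6 (-2.10, SE 0.299, adjusted p = 0.00191 by edgeR) and Lpcat3 (-0.69), against 3.29% of all genes called. The count was 4 without WT NASH replicate 4 or KO chow replicate 3 and 1 without KO NASH replicate 2. Elovl6 was 53.7 to 155 CPM in KO chow and 14.0 to 29.9 CPM in KO NASH, without overlap. The edgeR interaction called none of the 34 and 0.139% of all genes. Its unadjusted p was under 0.05 for 6 of them and for 8.25% of all genes. DESeq2 called 2 of them and 1.31% of all genes, and limma voom called 6 and 13.5%.

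**Figure D5:**
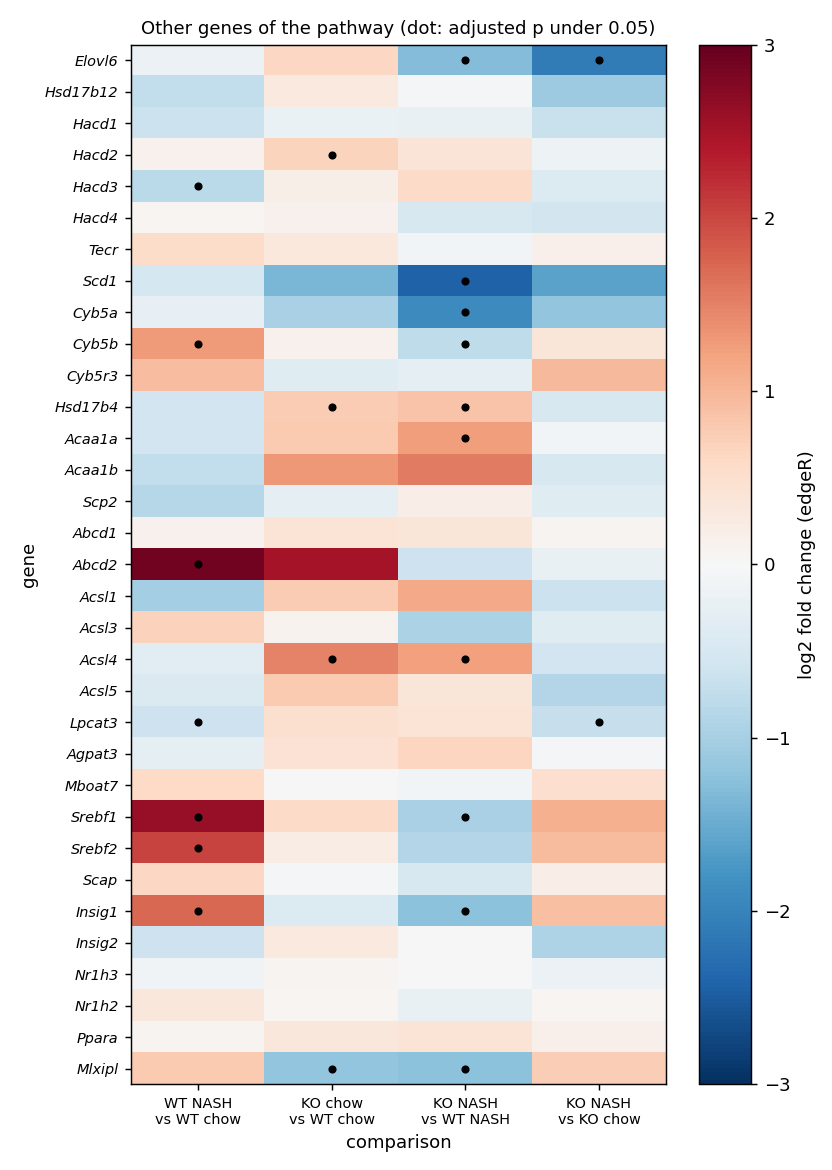
Log2 fold changes of 33 of the 34 tested pathway genes (rows) in the 4 comparisons (columns) on a colour scale from -3 to 3, with a dot where the adjusted p was under 0.05 by edgeR. Elovl6 carries dots in both comparisons of KO NASH, and Srebf1 and Insig1 are dotted as higher in WT NASH against WT chow and as lower in KO NASH against WT NASH.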

How the data were processed

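The deposited table holds whole-number read counts per gene symbol, unscaled; per the submitters' processing notes, HISAT2 2.0.4 and build GRCm38 were used. The counting program and its use of strand are not stated in the sources read, so overlapping or antisense genes cannot be told apart. RNA was extracted with Trizol and had an integrity number above 8, per the labels' protocols. The table's columns call the diet HFD and were taken as NASH, the only other diet in the labels. From the deposited counts, edgeR 4.0.16 (R 4.3.3) kept 14440 genes (filterByExpr, minimum count 10), which held 99.9% of counts, scaled by TMM, and fitted 4 groups together; SE is the log2 change over the square root of F. DESeq2 1.42.0 and limma 3.58.1 were alternatives, as were other scalings, filters, sex and length-slope terms, subsets and each library left out; leaving out the 6 libraries was chosen after seeing the data. All 9 members, the largest called rise and fall of the pathway list and the genes of highest correlation (mean of at least 5 CPM) were named by rule. One gene of the pathway list and one correlated gene that the rule names are not reported here. The members and lists were chosen with earlier results of these data known. Motif windows came from RefSeq.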

Additional observations from a re-analysis of the deposited data

Results flagged for a closer look

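Of 36 sets of 5 values (9 genes in 4 groups), 4 held 1 library whose gap to its neighbour exceeded Dixon's critical value of 0.71 of the range; chance gives about 1 in 20. Elovl1 was 27.5 CPM in WT NASH replicate 1, where the other 4 were 18.6 to 21.2 CPM, and it stayed below every KO NASH library. Elovl3 was 852 CPM in WT NASH replicate 4, the male of that group, and Fads2 was 155 CPM in the same library. Elovl3 was 338 CPM in WT chow replicate 3, which also had the highest sum of male-biased liver genes, 10270 CPM.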

How the results depend on the processing

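Counts of the 9 genes that passed the test changed as follows. For WT NASH against WT chow (none) the count was 1 by DESeq2, 4 by limma voom, 1 with the replicate block, 1 without the 6 libraries of negative slope, and 0 to 2 with 1 library left out. For KO chow against WT chow (2) it was 3 by limma voom, 1 with only the 2 groups fitted, 1 without the 6 libraries, and 1 to 2 with 1 library left out. For KO NASH against WT NASH (2) it was 4 by limma voom and 2 to 3 with 1 library left out. It was 3 with the replicate block, 3 with sex and length slope together, and 3 without the 6 libraries. With sex as a term it was 2, but Fads2 was called in place of Elovl7. The fits of a single sex leave 1 WT NASH male or 1 KO NASH female, and their counts are not given for this comparison. In males alone its log2 difference was 2.11 for Fads2 and -3.30 for Elovl3. For KO NASH against KO chow (1) it was 0 without the low-count filter, in males alone, in females alone and with KO NASH replicates 1 and 5 summed, 2 with sex, 2 with length slope, 3 with both, 3 by limma voom, 2 without the 6 libraries, and 0 to 2 with 1 library left out. For the interaction (none) it was 1 by DESeq2, 3 by limma voom, 1 with length slope, and 0 to 1 with 1 library left out. For sex (1) it was 3 by DESeq2, 2 by limma voom, 0 with the replicate block, 3 with sex and length slope, and 0 to 2 with 1 library left out.

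Counts of the 34 pathway genes changed as well. Fits whose count stayed near the main one are not listed. For WT NASH against WT chow (8) they were 5 without the filter, 20 by limma voom, 5 with only the 2 groups, 2 with sex, 5 with sex and length slope, 0 in males alone, and 5 to 11 with 1 library left out. For KO chow against WT chow (5) they were 3 without the filter, 8 by DESeq2, 18 by limma voom, 2 with only the 2 groups, 3 with the replicate block, 8 with length slope, 8 with sex and length slope, 3 with KO NASH replicates 1 and 5 summed, and 0 to 7 with 1 library left out. For KO NASH against WT NASH (11) they were 20 by limma voom, 2 with sex, 17 with length slope, 7 with both, 0 in females alone, 4 with KO NASH replicates 1 and 5 summed, 17 without the 6 libraries, and 4 to 12 with 1 library left out. For KO NASH against KO chow (2) they were 1 without the filter, 6 by DESeq2, 10 by limma voom, 1 with only the 2 groups, 4 with sex, 4 with length slope, 6 with both, 1 in males alone, 0 in females alone, 7 without the 6 libraries, and 1 to 4 with 1 library left out. For the interaction (none) they were 2 by DESeq2, 6 by limma voom, 2 with length slope, 1 without the 6 libraries, and 0 to 3 with 1 library left out.

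These counts are to be read against the share of all genes called in the same fit. For WT NASH against WT chow (5.93%) it was 2.39% without the filter, 10.4% by DESeq2, 40.6% by limma voom, 2.74% with only the 2 groups, 7.11% with the replicate block, 1.11% with sex, 5.01% with sex and length slope, 0.596% in males alone and 4.88% without the 6 libraries. For KO chow against WT chow (5.53%) these were 2.59%, 9.62%, 40.4%, 2.20%, 6.11%, 5.84%, 13.8%, 6.23% and 5.33%. For KO NASH against WT NASH (9.65%) they were 4.54%, 15.2%, 23.8%, 15.2%, 10.1%, 4.33%, 10.4%, 13.0% and 20.3%. For KO NASH against KO chow (3.29%) they were 0.960%, 9.02%, 12.7%, 2.33%, 3.70%, 3.98%, 9.37%, 0.370% and 7.69%. With length slope alone the shares in the same order of comparisons were 12.3%, 11.4%, 16.5% and 6.37%. For sex (1.02%) the share was 1.97% by DESeq2, 1.41% by limma voom, 0.886% with the replicate block and 2.36% with length slope. For the interaction (0.139%) it was 1.31% by DESeq2, 13.5% by limma voom, 1.32% with length slope and 0.518% without the 6 libraries. In females alone it was 0.138% for KO NASH against WT NASH and 0% against KO chow, and with KO NASH replicates 1 and 5 summed 5.23% and 1.23%, and 4.85% for KO chow against WT chow. With 1 library left out it was 2.82% to 11.7%, 2.37% to 8.32%, 4.89% to 11.8% and 1.01% to 5.40% in the order of the 4 comparisons above, 0.0272% to 0.981% for the interaction and 0.688% to 1.17% for sex.

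Elovl3 turned its sign, and limma voom and the fit without the 6 libraries called it in the 2 comparisons that follow. In KO NASH against WT NASH (-1.32) it was 3.01 by limma voom, 3.51 without the 6 libraries and -1.83 to 3.50 with 1 library left out, the last without WT NASH replicate 4. In WT NASH against WT chow (0.03) it was -5.34 by limma voom, -4.34 without the 6 libraries and -4.81 to 0.44 with 1 left out, the first without WT NASH replicate 4. In males alone, where replicate 4 is the only WT NASH mouse, these differences were -3.30 and 2.29, in that order. The cause under limma voom was not tested. The labels do not say whether replicate numbers pair the mice. Same-numbered libraries of 2 groups deviated together (r over 0.1) in 13 of 30 pairs, with r from -0.41 to 0.52. Libraries of unlike number were not compared in this way. The replicate block moved the counts above. With it Fads1 between the WT diets (1.20, adjusted p = 0.0243) and Fads2 in KO NASH against WT NASH (0.79, adjusted p = 0.0382) were called, and the sex coefficient of Elovl3 was not (-3.07, adjusted p = 0.178). In males alone Elovl7 had no finite value against WT NASH, whose male had 0 counts.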
